A study of Rattus norvegicus with 6 samples.

Results

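Nupr1 and 9 other genes of the integrated stress response (Atf4, Ddit3, Trib3, Asns, Phgdh, Psat1, Chac1, Sesn2 and Ddit4) were examined in the renal cortex of rats given 1,2-dibromoethane, a brominated alkylating chemical once used as a fumigant. The 10 genes are 10 of 15645 genes that could be named on the array, and 17 of 28206 named probes map to them. They were chosen by name with values of this comparison in view, above all the low level of Nupr1 in treated rats and the value of Psat1, so the differences between groups given for them are descriptions without a p-value. The animals were 6 male Sprague-Dawley rats bought at 5 weeks of age, and kept on a basal diet. The vehicle, corn oil, was given alone to 3 control rats, and 3 treated rats were dosed with 1,2-dibromoethane at 75 mg/kg/day, both for 4 weeks. Total RNA from each animal was hybridised to 1 single-colour array. The labels describe separate animals, and 3 arrays per group limit the precision of every difference.

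The integrated stress response is a pathway in which kinases that sense unfolded proteins, lack of amino acids, viral RNA or lack of haem phosphorylate the translation factor eIF2alpha. Most translation then falls, while the Atf4 transcript is translated more, and the factor ATF4 switches on genes for amino acid synthesis and uptake, for redox balance and for cell death, often through a composite C/EBP-ATF response element (CARE) bound with C/EBP proteins. Nupr1 encodes a small, stress-induced chromatin-associated protein that is itself a target of ATF4, and the proximal tubule is known for making serine through Phgdh and Psat1. The arrays measure transcripts and not translation or phosphorylation.

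The upstream sequences are shown because they do not depend on the expression values that were in view when the genes were chosen. A match to the CARE is not independent of the choice, since the genes belong to a pathway that often acts through it. The shares of windows with a match, also in the wider list of the pathway below, are therefore descriptions. All 10 genes were found in the RefSeq promoter table of the GRCr8 assembly, which covers 250 bases before to 50 bases after each annotated start. The letters TGATGNAA were searched on both strands, so that TTNCATCA counts as well. They occur in 3 of the 10 windows, those of Nupr1, Trib3 and Chac1, and in 3.98% of all 33469 windows of this length. The stricter letters TGATGCAA (TTGCATCA on the other strand), which are a subset of the former, are in the windows of Nupr1 and Chac1 and in 0.795% of all windows. The palindrome TGACGTCA, a cyclic AMP response element, is in 0 of the 10 windows and in 1.83% of all. Below are the 250 bases before the start of the 3 genes with a match, and of Ddit4, which has none. Ddit4 was added in view of its lower level in treated rats, so its display does depend on the expression values. Psat1 and Sesn2, whose groups did not overlap either, also have no match and are not shown. Each sequence runs 5′ to 3′ in the direction of the gene, with the match in capitals. Nupr1 lies at chr1:190645902-190646151 on the minus strand, Trib3 at chr3:161275534-161275783 on the minus strand, Chac1 at chr3:126795881-126796130 on the plus strand and Ddit4 at chr20:28437038-28437287 on the minus strand, all in GRCr8.
Nupr1: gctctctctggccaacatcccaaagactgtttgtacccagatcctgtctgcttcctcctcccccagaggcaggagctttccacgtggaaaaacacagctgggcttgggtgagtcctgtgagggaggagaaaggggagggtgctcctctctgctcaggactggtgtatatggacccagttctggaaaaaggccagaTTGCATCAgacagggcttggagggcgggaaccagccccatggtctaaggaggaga
Trib3: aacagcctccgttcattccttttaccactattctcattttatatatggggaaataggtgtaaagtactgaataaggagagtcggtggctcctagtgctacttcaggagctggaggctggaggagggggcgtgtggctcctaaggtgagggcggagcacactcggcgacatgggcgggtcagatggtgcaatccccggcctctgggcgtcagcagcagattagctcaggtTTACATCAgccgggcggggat
Chac1: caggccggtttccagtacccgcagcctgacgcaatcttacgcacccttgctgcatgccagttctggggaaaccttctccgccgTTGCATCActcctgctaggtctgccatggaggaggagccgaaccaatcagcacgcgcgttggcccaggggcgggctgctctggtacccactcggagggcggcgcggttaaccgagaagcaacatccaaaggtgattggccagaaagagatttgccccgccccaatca
Ddit4: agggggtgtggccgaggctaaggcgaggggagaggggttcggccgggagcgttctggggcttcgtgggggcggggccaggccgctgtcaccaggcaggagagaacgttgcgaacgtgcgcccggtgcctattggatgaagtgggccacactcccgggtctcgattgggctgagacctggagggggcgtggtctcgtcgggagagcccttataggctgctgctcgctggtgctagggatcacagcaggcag

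Counted from the annotated start, the match lies at -55 to -48 in Nupr1 (TTGCATCA), at -21 to -14 in Trib3 (TTACATCA) and at -167 to -160 in Chac1 (TTGCATCA). A match describes these letters only. A window without one does not show that the gene lacks the element, as sequence outside the window was not searched. The 3 genes did not share a pattern across the groups: the log2 difference between treated and control arrays was -1.74 for Nupr1, 0.15 for Trib3 and -0.04 for Chac1. Among 87 genes of a wider list of the pathway with a window in the table, 16 (18.4%) hold TGATGNAA, among them the tRNA synthetase genes Aars1, Cars1, Iars1, Mars1, Nars1, Tars1 and Yars1. Of these 16, 12 were measured well enough to be tested, 5 with a higher and 7 with a lower mean in treated rats. Their median log2 difference was -0.05 and their range -0.23 to 0.14, beside a median of 0.03 for 60 tested genes of the list without the match. None of the 12 passed limma's test after adjustment, and 0 had an unadjusted p under 0.05.

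Levels are log2 of the background-subtracted signal minus the array's 75th percentile, so that 0 is the signal at that percentile of all probes. Each SE is limma's moderated one, drawn towards the spread over all features, so it does not follow from the SDs printed beside it. Nupr1 stood apart from the other 9 genes. On its 1 probe, A_42_P812008, the log2 level was 0.58, 1.00 and -0.18 in control replicates 1 to 3 and -1.21, -1.13 and -1.48 in dibromoethane replicates 1 to 3. All treated arrays lay below all control arrays, and the lowest control was replicate 3. The mean was 0.47 ± 0.59 (SD, n = 3) in controls and -1.27 ± 0.18 (SD, n = 3) in treated rats. The log2 difference was -1.74 (SE 0.30), or 3.34-fold lower. The spot was well above background on all 6 arrays, with a raw median signal of 349.5 to 1474 units beside a local background of 39 to 85 units. Of 28961 features tested, 20 had a more negative difference, 9 of them named genes. Since Nupr1 was chosen with this difference in view, its rank is a description only. The spread among the controls was itself large: the control SD of Nupr1 exceeded that of 96.5% of all features, while its SD in treated rats exceeded that of 64.6%.

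**Figure D1:**
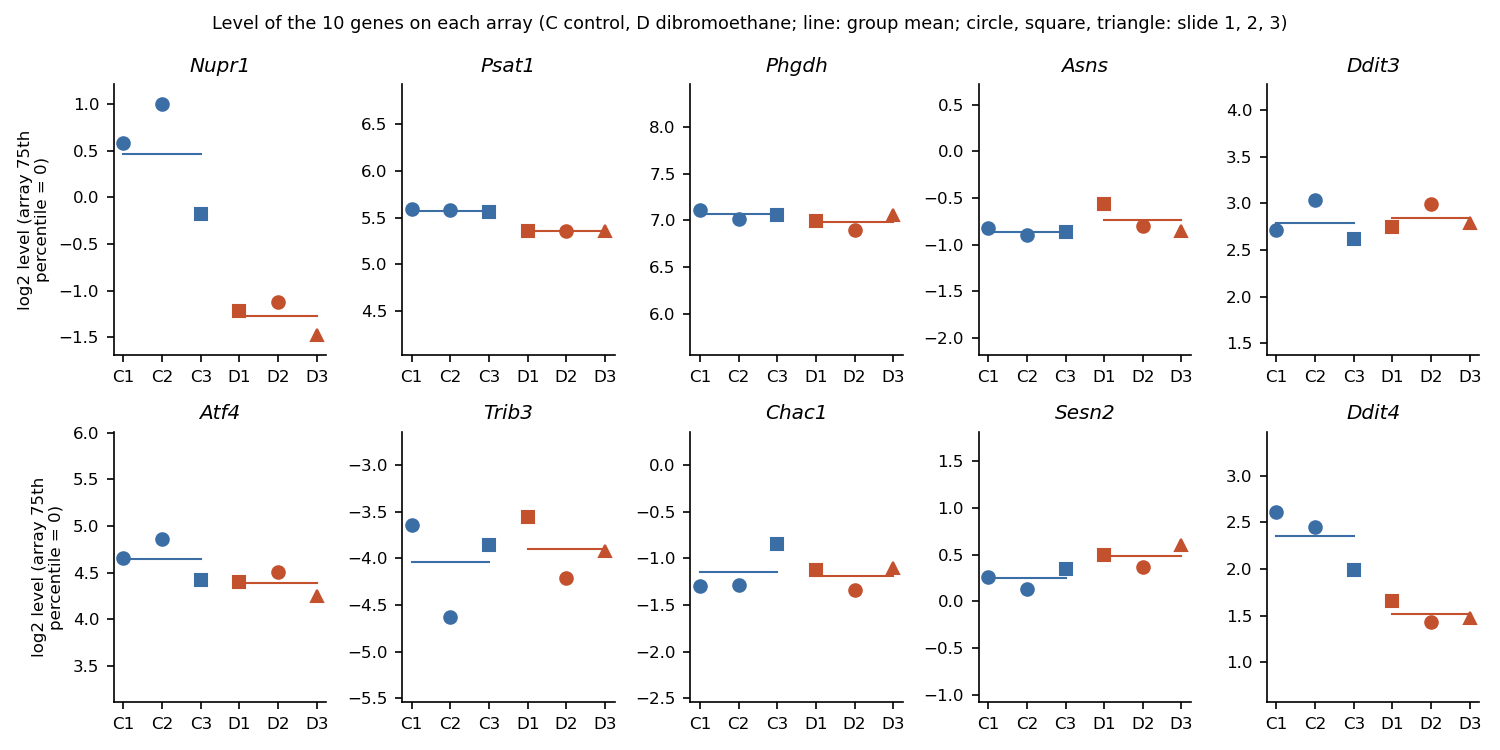
Log2 level of the 10 genes on each of the 6 arrays, relative to the array's 75th percentile, with a line at each group mean and the marker shape giving the slide; every panel spans the same range but has its own zero. Nupr1 and Ddit4 lie lower on all 3 treated arrays, Psat1 is lower by 0.22 with little spread, and Asns, Ddit3, Trib3 and Chac1 overlap between the groups.

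The arrays lay on 3 slides, and the size of the difference in Nupr1 varied with them. Control replicate 3, on slide 2 with dibromoethane replicate 1, was 0.96 lower on the log2 scale than the mean of the other controls (log2 difference -0.96), which lay on slide 1. The difference was -1.91 within slide 1 (2 controls and 1 treated array) and -1.04 within slide 2 (1 array per group). Slide 3 held 1 treated array and no control. Slide 2 was scanned on another day than slides 1 and 3, so slide 2 and that scan day cannot be told apart. Leaving out 1 array at a time gave -2.06 (without control replicate 3) to -1.47 (without control replicate 2). The difference was below 0 under all 22 alternative settings tried. Many of these could not turn its sign. As the groups did not overlap, leaving out arrays had to keep it negative, and other filters or probe rules left it at -1.74 by construction.

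**Figure D2:**
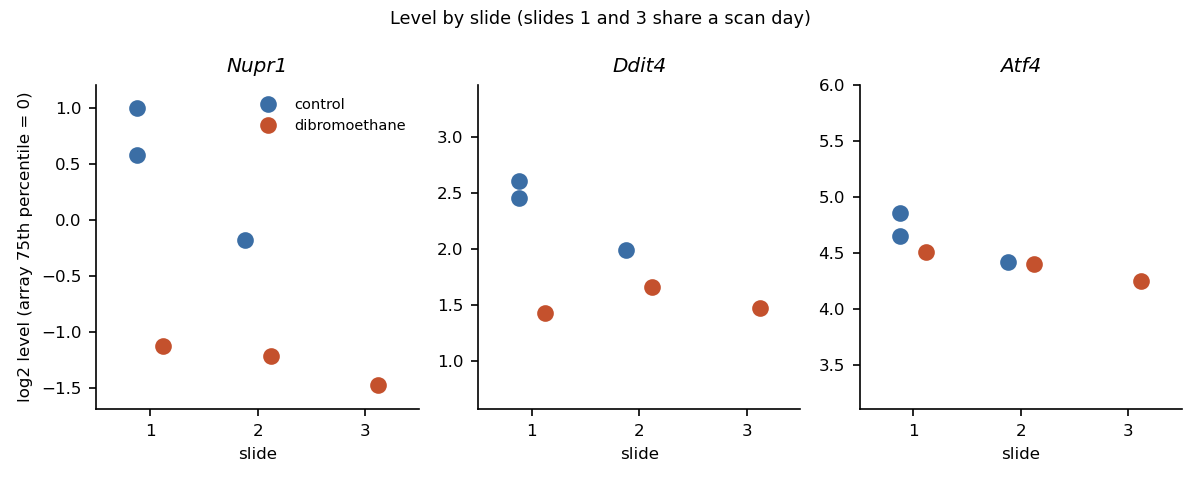
Log2 level of Nupr1, Ddit4 and Atf4 on each array by slide, with panels of equal range. In Nupr1 the treated array is lower on both slides that hold the 2 groups, with log2 differences of -1.91 and -1.04, and in Ddit4 they are -1.10 on slide 1 and -0.33 on slide 2; for Atf4 they are -0.25 and -0.019.

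Over all 10 genes, 6 had a lower and 4 a higher mean in treated rats, with a median log2 difference of -0.06, beside a median of -0.02 with quartiles of -0.13 and 0.10 over all features tested. The groups did not overlap in 4 genes, lower in Nupr1, Psat1 and Ddit4 and higher in Sesn2; over all features tested, 12.1% were lower and 7.37% higher without overlap. None of the 10 passed limma's adjusted threshold of 0.05, where 0.0311% of all features did (0.0242% raised and 0.00691% lowered, or 7 and 2 features; 5 and 0 with median centring or normexp background correction). At an unadjusted p under 0.05 in limma stood 3 of the 10 on the lower side, where 6.64% of all features stood, and 1 on the higher side, where 4.53% stood. Because the genes were chosen with this comparison known, nothing is read from these shares.

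Atf4 encodes the transcription factor at the centre of the pathway. Its log2 level was 4.66, 4.86 and 4.42 in control replicates 1 to 3 and 4.40, 4.51 and 4.25 in dibromoethane replicates 1 to 3. The groups overlapped through control replicate 3, which lay below dibromoethane replicate 2. The log2 difference was -0.26 (SE 0.13), and it was -0.25 within slide 1 and -0.019 within slide 2. Without control replicate 2 it was -0.15.

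Ddit3 encodes CHOP, a C/EBP family factor that acts downstream of ATF4 in prolonged stress. Both of its probes overlapped between the groups. On A_64_P059495 the log2 level was 2.72, 3.03 and 2.61 in controls and 2.75, 2.99 and 2.79 in treated rats, a difference of 0.06 (SE 0.13). The other probe, A_44_P445344, gave -0.05 (SE 0.19). The sign of the first turned without control replicate 3 (-0.030), without dibromoethane replicate 2 (-0.017) and with array weights (-0.011). Neither difference reached the spread between replicates. The highest array of each group was replicate 2 on both probes.

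Trib3, a pseudokinase that is induced by CHOP and ATF4 and restrains ATF4, was dim. Its log2 level was -3.64, -4.63 and -3.85 in controls and -3.56, -4.21 and -3.93 in treated rats, and all 6 spots were well above background. The raw signal was 104.5 to 139.5 units over a local background of 47 to 81 units. The groups overlapped, with a log2 difference of 0.15 (SE 0.30) that was -0.07 within slide 1 and 0.30 within slide 2. Its sign turned without control replicate 2 (-0.15), without dibromoethane replicate 1 (-0.025) and with normexp background correction (-0.0089).

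Phgdh and Psat1 encode the first and second enzymes of serine synthesis from glycolysis. Psat1 on A_64_P162599 had a log2 level of 5.60, 5.58 and 5.56 in controls and 5.36 on each of the 3 treated arrays. The groups did not overlap, and both had little spread, with an SD of 0.0205 in controls and 0.0017 in treated rats (n = 3 each). The log2 difference was -0.22 (SE 0.06), or 1.16-fold lower, with -0.23 within slide 1 and -0.20 within slide 2. With quantile normalization it was -0.13. Its second probe, A_44_P149161, gave -0.15 (SE 0.12) and overlapped between the groups.

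Phgdh overlapped between the groups on both probes. On A_42_P710738 the log2 level was 7.11, 7.02 and 7.06 in controls and 6.99, 6.90 and 7.06 in treated rats. The log2 difference was -0.08 (SE 0.08), and A_64_P123078 gave -0.08 (SE 0.08) too. It was -0.038 without dibromoethane replicate 2, and its sign depended on the scaling, with 0.030 under quantile normalization.

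Asns encodes asparagine synthetase, a classical gene of the amino acid response. Its log2 level was -0.82, -0.90 and -0.86 in controls and -0.57, -0.80 and -0.85 in treated rats. Dibromoethane replicate 1 was the highest, and dibromoethane replicate 3 lay among the controls. The log2 difference was 0.12 (SE 0.10), and 0.034 without dibromoethane replicate 1.

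Chac1 encodes an enzyme that degrades glutathione. On A_64_P112406 its log2 level was -1.30, -1.29 and -0.85 in controls and -1.13, -1.34 and -1.10 in treated rats, a difference of -0.04 (SE 0.15) with the groups overlapping. Its sign turned under 5 of the 22 alternatives, which ranged from -0.14 to 0.15. The other probes carried little information: A_44_P776556 was well above background on 1 control and 2 treated arrays, with -5.58 to -4.73 in controls and -4.75 to -4.38 in treated rats, and A_43_P17471 on 0 arrays.

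Sesn2 and Ddit4 both encode inhibitors of TORC1, the kinase complex that drives growth, and in treated rats they lay on opposite sides of their controls. Sesn2 had a log2 level of 0.26, 0.13 and 0.35 in controls and 0.49, 0.37 and 0.61 in treated rats. The groups did not overlap, but control replicate 3 lay close under dibromoethane replicate 2. The log2 difference was 0.24 (SE 0.10), or 1.18-fold higher, with 0.17 within slide 1 and 0.14 within slide 2.

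Ddit4 was lower on all of its 3 probes. On A_42_P605985 the log2 level was 2.61, 2.45 and 1.99 in controls and 1.66, 1.43 and 1.48 in treated rats, without overlap. The mean was 2.35 ± 0.32 (SD, n = 3) in controls and 1.52 ± 0.12 (SD, n = 3) in treated rats, 1.78-fold lower (log2 difference -0.83, SE 0.17). The other probes gave -0.70 (SE 0.17, A_44_P556895) and -0.74 (SE 0.24, A_64_P059485), also without overlap. As with Nupr1, control replicate 3 was the lowest control on every probe. The difference on A_42_P605985 was -1.10 within slide 1 and -0.33 within slide 2, and on A_64_P059485 it was -1.10 and -0.06.

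**Figure D3:**
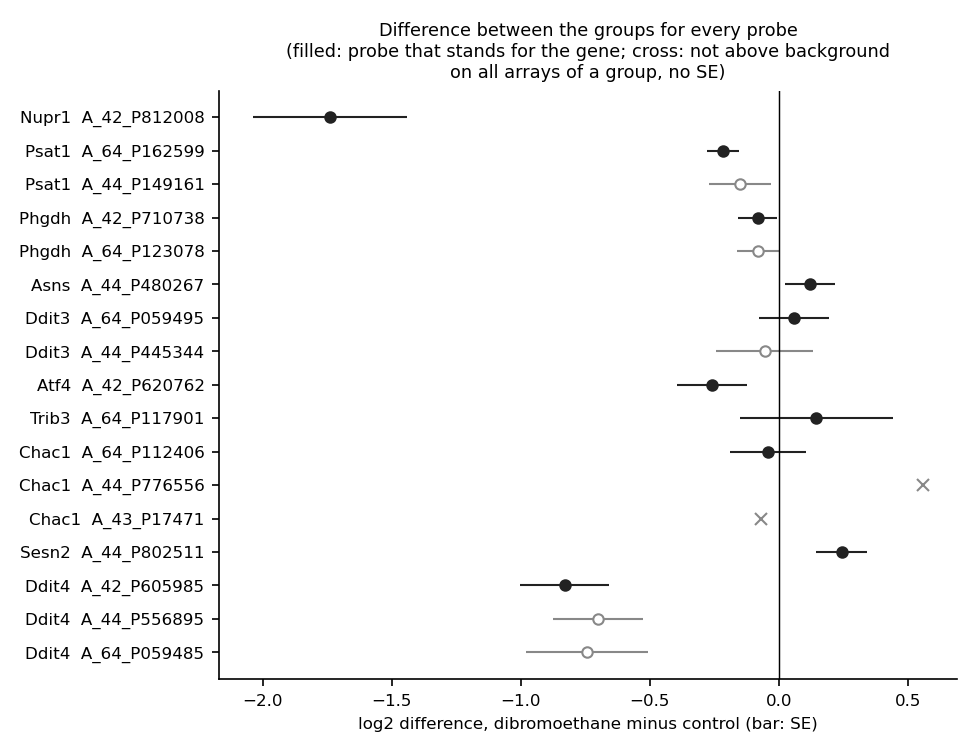
Log2 difference (dibromoethane minus control, 3 arrays per group) for all 17 probes of the 10 genes, with bars of 1 SE from limma; filled points stand for the gene, open points are further probes, and crosses are the 2 Chac1 probes that were not well above background on all arrays of a group. Probes of Ddit4, Phgdh and Psat1 lie on the same side of 0, and those of Ddit3 on both sides.

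The genes whose levels over the 6 arrays were most like those of Nupr1 were not among the other 9. Of the 5 named genes with the highest Pearson correlation to it, among 10995 well above background on all arrays, 4 were Eloc, an elongin subunit (r = 0.998), Map3k6, a kinase of the MAP kinase cascades (0.997), Pla2g15, a lysosomal phospholipase (0.995), and Zfp354a, a zinc finger protein of the kidney (0.994). As 532 of the 10995 genes (4.84%) had r above 0.9 over these 6 arrays, which share their groups and slides, these values describe likeness and carry no p. For deviations from the group means the values of these 4 were 0.989, 0.997, 0.968 and 0.989. As the 4 were picked for their r over the same arrays, this is no separate check. The genes differed in size, with log2 differences of -0.91 for Map3k6, -0.81 for Zfp354a, -0.43 for Pla2g15 and -0.09 for Eloc. Among the other 9 genes of the pathway, r with Nupr1 was 0.957 for Ddit4, 0.945 for Psat1, 0.886 for Atf4 and -0.924 for Sesn2, and between -0.50 and 0.44 for the rest. For deviations from the group means it was 0.964 for Atf4, 0.825 for Ddit3, 0.747 for Ddit4, 0.626 for Psat1, -0.831 for Sesn2 and -0.894 for Chac1, and between -0.53 and 0.044 for the rest.

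**Figure D4:**
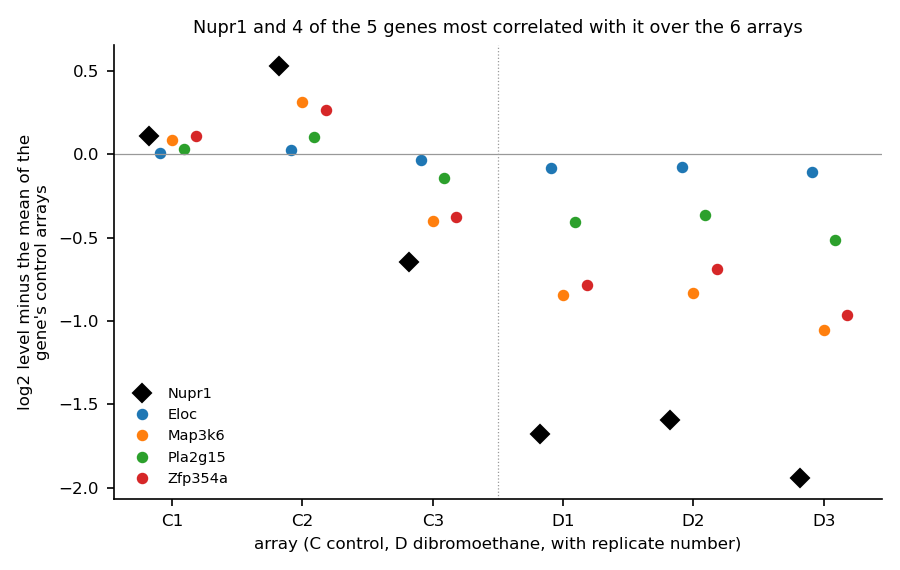
Log2 level of Nupr1 (diamonds) and of 4 of the 5 named genes most correlated with it, each minus the mean of its own control arrays, on the 6 arrays. In each of the 5 genes shown control replicate 2 is the highest and dibromoethane replicate 3 the lowest array.

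Other genes of the pathway came from a list of 102 genes in 13 role groups, of which 92 have a named probe here and 86 were tested. None passed limma's adjusted threshold of 0.05. At an unadjusted p under 0.05 in limma, 1 was higher (1.16% of 86, beside 4.53% of all features) and 6 were lower (6.98%, beside 6.64%). Without overlap between the groups, 5 were higher (5.81%) and 11 lower (12.8%), beside 7.37% and 12.1% of all features. The list divided evenly, 43 with a positive and 43 with a negative difference, and its median log2 difference was -0.01.

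Of the 4 kinases of eIF2alpha, Eif2ak3, which encodes the sensor PERK of the endoplasmic reticulum, had a log2 difference of -0.27 (SE 0.10), with the groups apart. Its second probe gave -0.09. Eif2ak2, the kinase PKR, had 0.12 (SE 0.08), with -0.17 from its other probe. Among 8 subunits of eIF2 and of its exchange factor eIF2B, Eif2b2 had -0.49 (SE 0.25) and Eif2s2 had -0.19 (SE 0.09). Eif2b2 ranged from -0.75 without control replicate 2 to -0.28 without control replicate 1, and Eif2s2 was -0.12 without control replicate 2. The regulatory subunits of the phosphatase that reverses the signal gave -0.23 (SE 0.11) for Ppp1r15b and -0.10 (SE 0.12) for Ppp1r15a. None of these 14 genes passed the adjusted threshold.

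The ATF and C/EBP factors, partners and relatives of ATF4, held the most negative value of the wider list. Cebpb had a log2 level of 2.32, 2.95 and 2.10 in controls and 1.52, 1.78 and 1.75 in treated rats, without overlap. Its log2 difference was -0.77 (SE 0.23; limma adjusted p = 0.359), with -0.90 from its other probe, -0.85 within slide 1 and -0.58 within slide 2. Cebpd had -0.68 (SE 0.30), but 0.06 within slide 2. Over the 7 genes of this group the median was -0.08. Of the paralogs of the 10 genes, Trib1 had -0.23 (SE 0.06) and Chac2 had -0.21 (SE 0.07), both without overlap. Sesn3 was higher without overlap, at 0.21 (SE 0.10), with 0.23 from its other probe. Of the 5 tested paralogs 3 were positive and 2 negative, with a median of 0.06.

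Enzymes of amino acid metabolism lay on both sides of 0. Gpt2, a mitochondrial alanine transaminase, had the smallest p of the whole list. Its log2 level was -3.92, -3.95 and -4.00 in controls and -2.93, -3.15 and -3.46 in treated rats, a difference of 0.77 (SE 0.14), without overlap. The limma adjusted p was 0.236 (0.142 to 0.749 over the alternatives), and a further probe gave 1.06. With normexp background correction it was 0.47. Cbs, which makes cystathionine, had 0.19 (SE 0.08). On the probes that stand for them, all 5 tested enzymes of proline, cysteine and transamination were positive, with a median of 0.19. Among them Aldh18a1 had 0.08 (SE 0.16), but -0.33 from its other probe and -0.30 within slide 2. In the serine and one-carbon group Psph, the last enzyme of serine synthesis, had 0.30 (SE 0.16) and Mthfd2 had 0.23 (SE 0.14), while Shmt2 had -0.18 (SE 0.12), Mthfd1l had -0.22 (SE 0.22) and Sdsl had -0.37 (SE 0.26; -0.85 from its other probe). The group held 3 positive and 3 negative genes, with a median of 0.03.

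The 13 tested genes of tRNA charging had a median of 0.06 and a range of -0.16 to 0.24. Vars1 had 0.24 (SE 0.11), and Wars1 had -0.16 (SE 0.07), with 0.30 and 0.17 from its other probes. Of 8 amino acid transporters 4 were tested, with 0.22 (SE 0.20) for Slc1a5 and -0.23 (SE 0.19) for Slc38a2; Slc7a11, Slc7a5 and Slc1a4 were not well above background on all arrays of a group. Leaving out 1 array gave 0.093 (without dibromoethane replicate 1) to 0.44 (without dibromoethane replicate 3) for Slc1a5, and -0.43 (without control replicate 3) to -0.10 (without control replicate 2) for Slc38a2. Among other targets of ATF4, Herpud1 had -0.20 (SE 0.16) and Ndrg1 had -0.15 (SE 0.13). Herpud1 was -0.052 without control replicate 2, and Ndrg1 was -0.039 without dibromoethane replicate 3. The median of those 8 tested genes was below 0.01 in size, at -0.0041, while Fgf21 and Stc2 were too dim to be tested.

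In the IRE1 and ATF6 arms of the unfolded protein response, which run beside the PERK arm, 6 genes were positive and 7 negative, with a median of -0.06. Ern1, which encodes the sensor IRE1, had -0.44 (SE 0.12; limma adjusted p = 0.349; -0.22 with normexp), without overlap. It entered the test through the controls, since it was not well above background on all treated arrays. Sel1l had -0.22 (SE 0.10). Of proteins known to bind NUPR1, 3 were tested, 1 with a positive and 2 with a negative difference. Ptma (prothymosin alpha) had -0.34 (SE 0.10), with -0.22 and -0.35 from its other probes and no overlap on the first. Kpna3 had -0.32 (SE 0.18), while Msl1 had 0.07 (SE 0.18), with 0.15 from its other probe. Among 8 genes of TORC1 control Mtor had 0.23 (SE 0.10) and Rps6kb1 had -0.11 (SE 0.07). Of wider list genes given a value, the sign turned within slide 2 for Eif2ak2, Cebpd, Aldh18a1, Mthfd2, Slc38a2, Ndrg1, Kpna3 and Rps6kb1. Within slide 1 it turned for Ppp1r15a, Shmt2 and Sdsl. Leaving out 1 array also moved other values by over 1.5 times, with ranges of -0.31 to -0.15 for Ppp1r15b, 0.19 to 0.44 for Psph, 0.15 to 0.37 for Mthfd2, 0.15 to 0.31 for Vars1, -0.27 to -0.14 for Sel1l, -0.49 to -0.15 for Kpna3, 0.15 to 0.27 for Mtor and -0.14 to -0.072 for Rps6kb1.

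**Figure D5:**
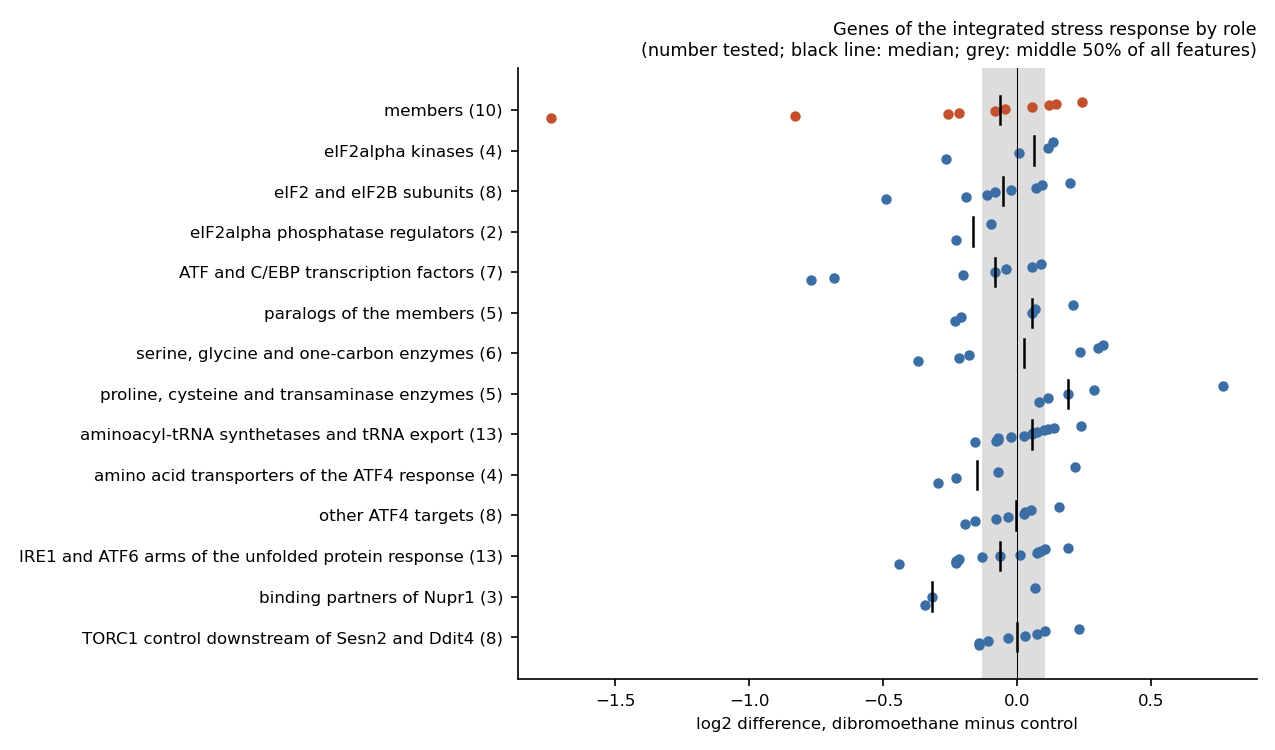
Log2 difference (dibromoethane minus control) of the 10 genes (red) and of 86 tested genes of the pathway in 13 role groups (blue), with the median of each group as a black line and the span between the quartiles of all 28961 features, -0.13 to 0.10, in grey. Nupr1 at -1.74 lies far from every other gene shown, and Ddit4, Cebpb, Cebpd and Gpt2 are the next farthest from 0.

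Array quality and cell type markers bear on these values as follows. Between 59.2% and 67.7% of probes were well above background per array, and no spot was saturated. All 8 proximal tubule markers were well above background on all arrays, with a summed signal (in units of the array's 75th percentile) of 1276 to 1349 in controls and 1191 to 1227 in treated rats (1 of 8 positive). In bulk tissue fewer cells of a type and less RNA per cell cannot be told apart. The 14 liver markers summed to 12.7 to 18.7 in controls and 20.7 to 50.1 in treated rats (13 of 13 tested positive, 0 called). On all 6 arrays 10 of them were well above background, with log2 differences from 0.08 (Apoc3, SE 0.09) to 3.08 (Ttr, SE 0.98). Fgg, Apoa2 and Serpina1 were so on 5 arrays and entered the test through the treated group. Tat was below that limit on all 6 arrays. Each sum is on the linear scale, so bright genes weigh most in it. Macrophage markers summed to 19.0 to 21.5 in controls and 14.2 to 16.7 in treated rats (1 of 7 positive, Cd163 never well above background). Their log2 differences were -0.54 for C1qa, -0.48 for C1qb, -0.41 for C1qc, -0.21 for Ptprc, -0.14 for Adgre1, -0.03 for Cd68 and 0.05 for Csf1r. Blood cell markers summed to 185 to 215 and 132 to 158 (1 of 3 positive). The brightest of them, Hbb, had -0.43, beside -0.52 for Alas2 and 0.09 for Ahsp. Perirenal fat markers summed to 1.51 to 1.67 and 1.14 to 1.46 (0 of 3 positive, Lep never well above background). Thick ascending limb markers summed to 316 to 341 in controls and 136 to 352 in treated rats (0 of 3 positive). Of 6 markers of the pancreas, a tissue rich in Nupr1, Prss1, Cela1 and Amy2a3 were never well above background, Cpa1 and Pnlip were so on 1 array each, and Ctrb1 was so on all 6 (log2 level -1.70 to -1.08). Their sum was 0.342 to 0.560 in controls and 0.424 to 0.507 in treated rats. The ranges of the 2 groups overlapped for distal tubule and collecting duct, podocyte, endothelial, lymphocyte and adrenal markers. The part of these lists in the level of Nupr1 or Ddit4 was not tested.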

How the data were processed

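Single-colour (Cy3) Agilent arrays of renal cortex RNA, 3 control and 3 treated rats, were analysed. The deposited scanner tables hold intensity values, background-subtracted by Feature Extraction 10.7.1.1 on design 045522 with a grid of genome build rn4, per the file headers (10.7 per the submitters' processing notes). The deposited series table holds intensity values that equal the processed signal over the array's 75th percentile (r = 1.000 with the scanner values on the log2 scale); its column medians were 0.101 to 0.112.

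Of 62976 spots, 1439 control spots and 84 ERCC probes were left out. Accessions without versions named 28206 of 61453 probes through the RefSeq table of GRCr8, which differs from rn4 and gave names and promoters only. Each array's log2 processed signals were centred on their 75th percentile; outlier spots (1 to 11 per array) were set missing. The brightest probe stood for a gene, and a feature was tested if well above background on all arrays of a group (28961 features). The 2 groups were tested in limma 3.58.1 under R 4.3.3 (lmFit, eBayes; no covariate), with two-sided p-values adjusted by Benjamini-Hochberg over all features; the fit was tested on simulated data. The genes and lists were chosen with earlier results of these data known. Named were all 10 genes, the 2 genes of smallest p per role group and the 5 genes most correlated with Nupr1, 1 of which is not reported here; other names illustrate a count and were chosen after their values were seen. Normexp used the median spot and background signals (offset 50). Alternatives were other scalings, filters, probe rules, slide, scan day or replicate number as blocks, array weights, trend and robust, the series table and leaving out each array; scan day 1 alone was added after seeing the data.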

Additional observations from a re-analysis of the deposited data

How the results depend on the processing

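Of 791 gene values under 22 alternatives, 782 kept their direction and their side of the threshold or, for the 10 genes, moved by less than the spread between replicates. Part of this was fixed by construction: other filters, probes tested singly, scan day or replicate blocks, and trend and robust kept the main difference. Slide as a fixed block and only slides that hold both groups gave the same values, but were counted separately. No gene of the wider list passed in the main fit, so no call could be lost. The log2 difference of Nupr1 ranged from -2.09 (scan day 1 alone) to -1.47. Of the wider list, the sign turned for Eif2ak2 (-0.026) and Wars1 (0.11) when probes were averaged, and Ppp1r15a without dibromoethane replicate 1 (leave-one-out range -0.20 to 0.0066). Of the 10 genes, the sign turned for Chac1 under 5 alternatives, for Trib3 and Ddit3 under 3 each and for Phgdh under 1. Of their values 6 moved by more than the spread: Psat1 with quantile normalization (-0.13), median centring (-0.25), normexp (-0.18) and averaged probes (-0.18), Phgdh with quantile normalization (0.030) and Ddit4 on scan day 1 alone (-1.08). Under all alternatives 0 genes of the wider list passed limma's adjusted threshold. Over all features, 9 changed (7 raised, 2 lowered; 3237 at an unadjusted p under 0.05). Median centring and normexp each gave 5 changed, 5 raised and 0 lowered. Without a filter 2 changed, 2 raised and 0 lowered, among 48892 features. Trend and robust gave 17 changed and 8 lowered. With scan day blocked 2 features changed (2 raised, 0 lowered). Slide as a fixed block (limma, 3511 with unadjusted p under 0.05), only slides that hold both groups (3511), and scan day 1 alone (2448) gave 0 changed, 0 raised and 0 lowered. The leave-one-out counts were 1 to 10 changed, of which 1 to 8 raised and 0 to 3 lowered. Some of these settings used fewer arrays or more features, and the cause of the differing counts was not tested. The replicate block gave 0 changed, 0 raised and 0 lowered in limma (3462 with unadjusted p under 0.05), and -1.74 (SE 0.18) for Nupr1. Deviations of arrays with the same number correlated at -0.146, 0.359 and 0.211, and 3 of the 6 arrays correlated best with their own number, so the numbers were not taken to pair the animals. The depth of an array is limited by its signal over background, which left 6 of 92 measured genes of the wider list untested.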
